A study of Mus musculus with 24 samples.

Results

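Type I interferon antiviral response genes were followed in blood stem and progenitor cells of mice that had lost Phf6. They are 47 of the 27179 genes counted in the series, chosen by symbol as genes of the antiviral programme. The choice was made with earlier results of these data known, so the set is not independent of them. The guanylate-binding and immunity-related GTPase families were left out of the set. All 47 had a named row, and all 47 passed the filter on low counts in every comparison.

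The study sequenced RNA from 3 populations sorted from the bone marrow of 8 mice. Cells of crushed bones were sorted on KIT, SCA1, CD150 and CD48 once mature lineages had been removed. HSC are haematopoietic stem cells, MPP their multipotent progeny, and HPC-1 a more restricted progenitor population. Of these mice 4 carry the label Phf6 deleted and 4 the label control, in 4 litters with 1 mouse of each kind, so each population gave 4 deleted and 4 control libraries. Every mouse has the same strain label, Phf6lox/Y;Tie2-creTg/+, that is, a floxed Phf6 on the single X chromosome of a male and a Tie2-cre transgene, whose promoter acts in endothelial and blood cells. The labels therefore do not say in what the control mice differ or whether they carried Cre, and they give no age. A SMART-Seq kit was used for HSC and MPP and a TruSeq kit for HPC-1, so that kit and population cannot be told apart there, and no level in HPC-1 is set against one in HSC or MPP.

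Interferons are secreted proteins that warn cells of infection. They bind a receptor at the cell surface, whose kinases activate transcription factors, STAT2 among them. STAT2 joins IRF9 in a complex that enters the nucleus and binds a short element upstream of the response genes. The products sense viral nucleic acid, block viral RNA and protein synthesis, and in part feed back on the pathway itself, and in stem cells the pathway is known to drive quiescent cells into division.

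Phf6, the targeted gene, fell in each population, and deleted and control libraries did not overlap. In HSC, Phf6 was at 37.8, 54.3, 54.5 and 80.2 CPM (counts scaled to the size of the library) in deleted mice of litters 1 to 4, against 185, 221, 244 and 224 in control mice. Its log2 fold changes in HSC, MPP and HPC-1 were -1.95 ± 0.22, -1.82 ± 0.18 and -2.08 ± 0.16 (SE), with edgeR adjusted p of 0.0211, 0.00432 and 3.29e-05. The libraries held 9658167 to 27786830 counts. Sort markers followed the labels: Slamf1, the gene of CD150, ran from 9.08 to 88.0 CPM over the 8 HSC libraries and reached at most 3.43 CPM in MPP. In HPC-1, taken alone, Cd48 was at 168 to 224 CPM and Slamf1 at 0 to 1.46 CPM. The MPP library of the deleted mouse of litter 3 stood apart, with 9.34% of its counts in its 10 most abundant genes and 14710 genes detected, where the other 7 MPP libraries had 2.95% to 5.08% and 15951 to 16479 genes. MPP results are therefore also given without it.

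The element bound by the complex that holds STAT2 and IRF9 was looked for first, as the feature that these genes are known to share. The letters GAAANNGAAA, on either strand (TTTCNNTTTC when read on the other strand), were searched in the 250 bases before each gene's start in RefSeq promoters of GRCm38.p6. A promoter was found for 35 of the 47 members, and 15 of the 35 (42.9%) held a match, against 936 of 27025 genes (3.46%). No other motif was searched. The promoters below belong to the 4 members with a match that had the lowest unadjusted p for the effect of deletion averaged over the populations. Each is printed 5′ to 3′ on the strand of its gene, with the match in capitals: Rsad2 lies at chr12:26456513-26456632 (minus strand), Ifit1 at chr19:34640744-34640863 (plus strand), Ifit3b at chr19:34607743-34607862 (plus strand) and Slfn8 at chr11:83020811-83020930 (minus strand).
Rsad2: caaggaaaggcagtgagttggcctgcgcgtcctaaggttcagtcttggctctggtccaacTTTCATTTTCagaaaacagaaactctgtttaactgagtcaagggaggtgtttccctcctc
Ifit1: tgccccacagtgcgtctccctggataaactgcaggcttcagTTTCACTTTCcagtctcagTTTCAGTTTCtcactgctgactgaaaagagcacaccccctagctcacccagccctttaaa
Ifit3b: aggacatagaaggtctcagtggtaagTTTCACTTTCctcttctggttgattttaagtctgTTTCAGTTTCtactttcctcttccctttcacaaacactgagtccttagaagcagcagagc
Slfn8: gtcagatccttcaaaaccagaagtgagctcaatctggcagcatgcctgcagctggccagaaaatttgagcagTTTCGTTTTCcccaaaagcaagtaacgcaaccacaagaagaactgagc
The match begins at -120 from the start of Rsad2 and at -48 from that of Slfn8. Ifit1 has matches at -104 and -85, and Ifit3b at -188 and -154. All 4 read TTTC first on the gene's own strand. A match is a string of letters and not a bound site.

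The first question was what deletion of Phf6 did to these genes in the animal as a whole. Each mouse's log2 CPM was averaged over its 3 populations, and the 8 mice were compared with limma over 12843 genes. The antiviral genes Rsad2, Ifi44 and Ifit1 rose in deleted mice, and no member fell. By number, 3 of 47 members were higher at an adjusted p below 0.05, where 0.0779% of all genes were, and 0 were lower (0.0234%). A further 28 members, 31 in all (66%), were higher at an unadjusted p below 0.05, against 4.29% of all genes, and 0 were lower (4.64%). In 24 members no deleted mouse overlapped a control mouse (2.39% of all genes), and in 35 the deleted mouse was higher in each litter (8.63%). The log2 fold change was above 0 for 46 members (46.3% of all genes), and its median was 0.44 over members and -0.02 over all genes.

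Rsad2 encodes viperin, an enzyme that makes a chain-terminating nucleotide and so stops viral RNA synthesis (chromosome 12, 26442743 to 26456452). In HSC, Rsad2 was at 53.99, 64.6, 52.1 and 62.4 CPM in deleted mice of litters 1 to 4, against 30.5, 31.2, 28.2 and 24.4 CPM in control mice. In MPP, Rsad2 was at 68.7, 59.5, 171 and 114 CPM in deleted and 33.9, 28.6, 42.1 and 40.03 CPM in control mice. The HPC-1 libraries held 24.2, 19.9, 25.1 and 36.4 CPM in deleted and 13.97, 14.3, 10.7 and 13.1 CPM in control mice. Every deleted library was above every control library of its population, and the highest value was in the MPP library that stood apart. Over the 8 mice the log2 fold change was 1.14 ± 0.15 (SE, limma adjusted p = 0.00915, and 0.0426 with litter as a block).

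Ifi44, whose cytoplasmic product limits virus growth, rose by 0.88 ± 0.13 on the log2 scale (SE, limma adjusted p = 0.0191, and 0.0475 with the litter block). It lies on chromosome 3, 151730922 to 151749910. In HSC, Ifi44 was at 174, 123, 118 and 187 CPM in deleted and 91.1, 62.9, 74.3 and 77.7 CPM in control mice. In MPP, Ifi44 was at 183, 213, 212 and 276 CPM in deleted and 102, 94.95, 168 and 114 CPM in control mice. In HPC-1, Ifi44 was at 56.3, 39.98, 48.7 and 46.6 CPM in deleted and 25.3, 26.8, 33.4 and 25.1 CPM in control mice. Ifi44, like Rsad2, overlapped in no population, although the highest MPP control library lay close below the lowest deleted one.

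Ifit1 encodes a protein that captures viral RNA lacking the host cap methylation (chromosome 19, 34640889 to 34650009). In MPP, Ifit1 was at 107, 81.4, 94.0 and 135 CPM in deleted and 41.8, 30.7, 61.8 and 48.04 CPM in control mice. In HPC-1, Ifit1 was at 13.5, 12.7, 15.99 and 13.01 CPM in deleted and 5.82, 7.62, 6.71 and 7.23 CPM in control mice. In HSC, Ifit1 was at 49.5, 62.2, 31.6 and 58.3 CPM in deleted and 20.7, 18.1, 33.8 and 33.5 CPM in control mice. The groups were separate in MPP and HPC-1, while in HSC the deleted mouse of litter 3 lay below 2 controls. For the mice as units it was 1.05 ± 0.16 on the log2 scale (SE, limma adjusted p = 0.0289), and the call ended with litter as a block (adjusted p = 0.0595). The map places Ifit1bl1 over Ifit1, and unstranded reads of the pair cannot be told apart.

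These 3 calls rested on single mice and on HPC-1. Leaving out 1 mouse at a time, limma called Rsad2 in 6 of 8 fits, Ifi44 in 4 and Ifit1 in 2. No member passed without the control mouse of litter 2 or that of litter 4, and 1 passed without that of litter 1. Without the deleted mouse of litter 3, which gave the MPP library that stood apart, all 3 passed (adjusted p = 0.0114, 0.0114 and 0.0146 for Rsad2, Ifi44 and Ifit1). With HSC and MPP alone none passed, although 29 members had an unadjusted p below 0.05 (share of all genes not given). With the 3 libraries of each mouse summed and tested by edgeR, Rsad2 (adjusted p = 0.0474) and Mx1 (adjusted p = 0.0147) passed.

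**Figure D1:**
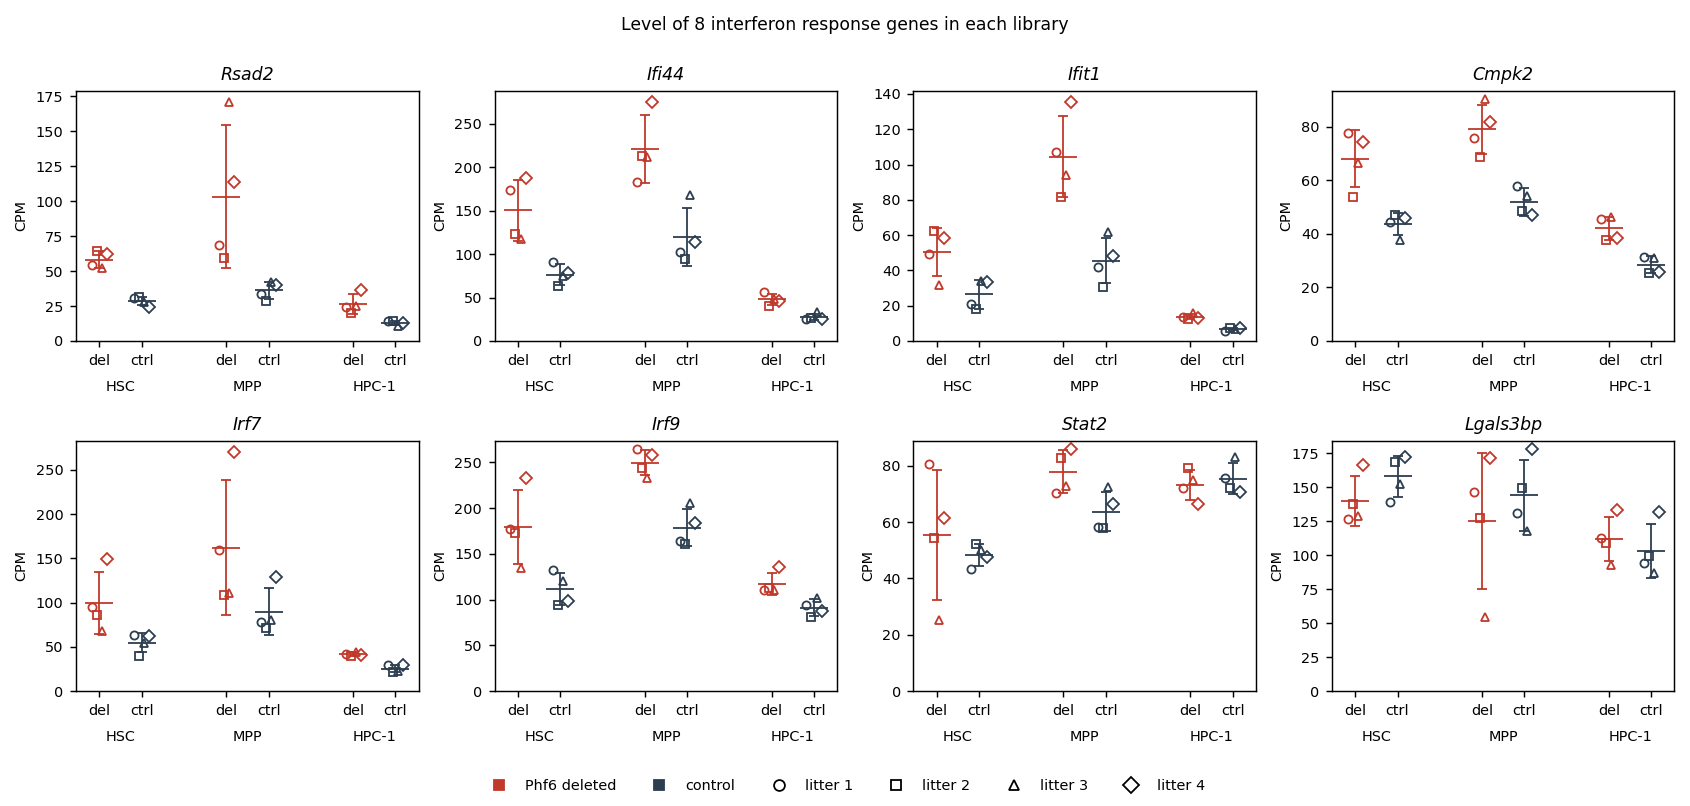
CPM of 8 response genes in each library (vertical axes, linear, from 0), deleted (left of each pair) and control, for HSC, MPP and HPC-1. Symbols are litters, the horizontal bar is the group mean and the whisker 1 SD over 4 libraries. Rsad2, Ifi44, Cmpk2 and Irf9 do not overlap in any population, whereas Stat2 and Lgals3bp overlap in each of the 3.

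Each population was then tested alone with edgeR, and the shares of all genes below are from edgeR. No such share is given for counts by DESeq2 or voom, or for fits that leave out a library. In HSC, 0 of 47 members passed an adjusted p below 0.05 in either direction (0% of all genes higher, 0.0073% lower), while voom called 0 and DESeq2 called 2, Rsad2 and Ifi44. At an unadjusted p below 0.05 there were 15 members higher (31.9%, against 2.37% of 13693 genes) and 0 lower (1.49%). A log2 fold change above 0 was found for 44 members (50.8% of all genes), with a median of 0.43 over members and 0.01 over all genes. For 8 members all 4 deleted libraries lay above all 4 control libraries (1.56% of all genes), and for 15 the deleted mouse was higher in each of the 4 litters (6.05%).

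In MPP, 0 members passed the adjusted threshold (0.0217% of all genes higher, 0.00724% lower), while voom called 0 and DESeq2 called 10. At an unadjusted p below 0.05, 28 members were higher (59.6%, against 5.71% of 13806 genes) and 0 lower (2.38%). Fitted values lay above 0 for 45 members (51.9% of all genes), and the median was 0.61 over members and 0.02 over all genes. For 17 members the groups did not overlap (2.87%), and for 34 the deleted mouse was higher in each litter (10.7%). Without the deleted library of litter 3 the median was 0.54, 32 members had an unadjusted p below 0.05, and 3 passed by edgeR: Mx1 (adjusted p = 0.0148), Ifi204 (adjusted p = 0.0309) and Ifit3 (adjusted p = 0.0435). The log2 fold change in MPP was 1.51 for Rsad2 and 1.08 for Rtp4 with that library, and 1.16 and 0.72 without it.

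In HPC-1, 0 members passed (0.0288% of all genes higher, 0.036% lower), while voom called 1 and DESeq2 called 6, and 6 (12.8%) passed with litter as a block (0.216% of all genes). At an unadjusted p below 0.05, 25 members were higher (53.2%, against 2.27% of 13907 genes) and 0 lower (2.72%). The log2 fold change was above 0 for 46 members (49.3% of all genes), with a median of 0.35 over members and 0.00 over all genes. The groups did not overlap for 16 members (1.58%), and for 30 the deleted mouse was higher in each litter (7.84%). The 6 members with the block were Ifi44 (0.79 ± 0.13, SE), Irf7 (0.73 ± 0.13), Rsad2 (0.99 ± 0.19), Mx1 (1.24 ± 0.24), Oas2 (0.65 ± 0.14) and Cmpk2 (0.56 ± 0.12). Their edgeR adjusted p with the block ran in that order 0.0105, 0.0239, 0.0261, 0.027, 0.0486 and 0.0496.

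The 3 populations come from the same 8 mice, so they are not independent tests of the genotype. Side by side, 42 members had a log2 fold change above 0 in each population. The exceptions were Ifit2, Stat2, Bst2 and Ifi35, above 0 in 2 populations, and Lgals3bp, above 0 in 1. Ifi44, Rsad2, Irf9, Usp18 and Cmpk2 were without overlap in all 3 populations. Of 12 pairs of littermate libraries, the deleted one was the higher in all 12 for 10 members: Ifi44, Rsad2, Isg15, Irf7, Irf9, Usp18, Rtp4, Xaf1, Cmpk2 and Eif2ak2. The fewest were 5 of 12, for Lgals3bp. The share of all genes that meet these joint criteria was not computed, so these counts have no background beside them.

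**Figure D2:**
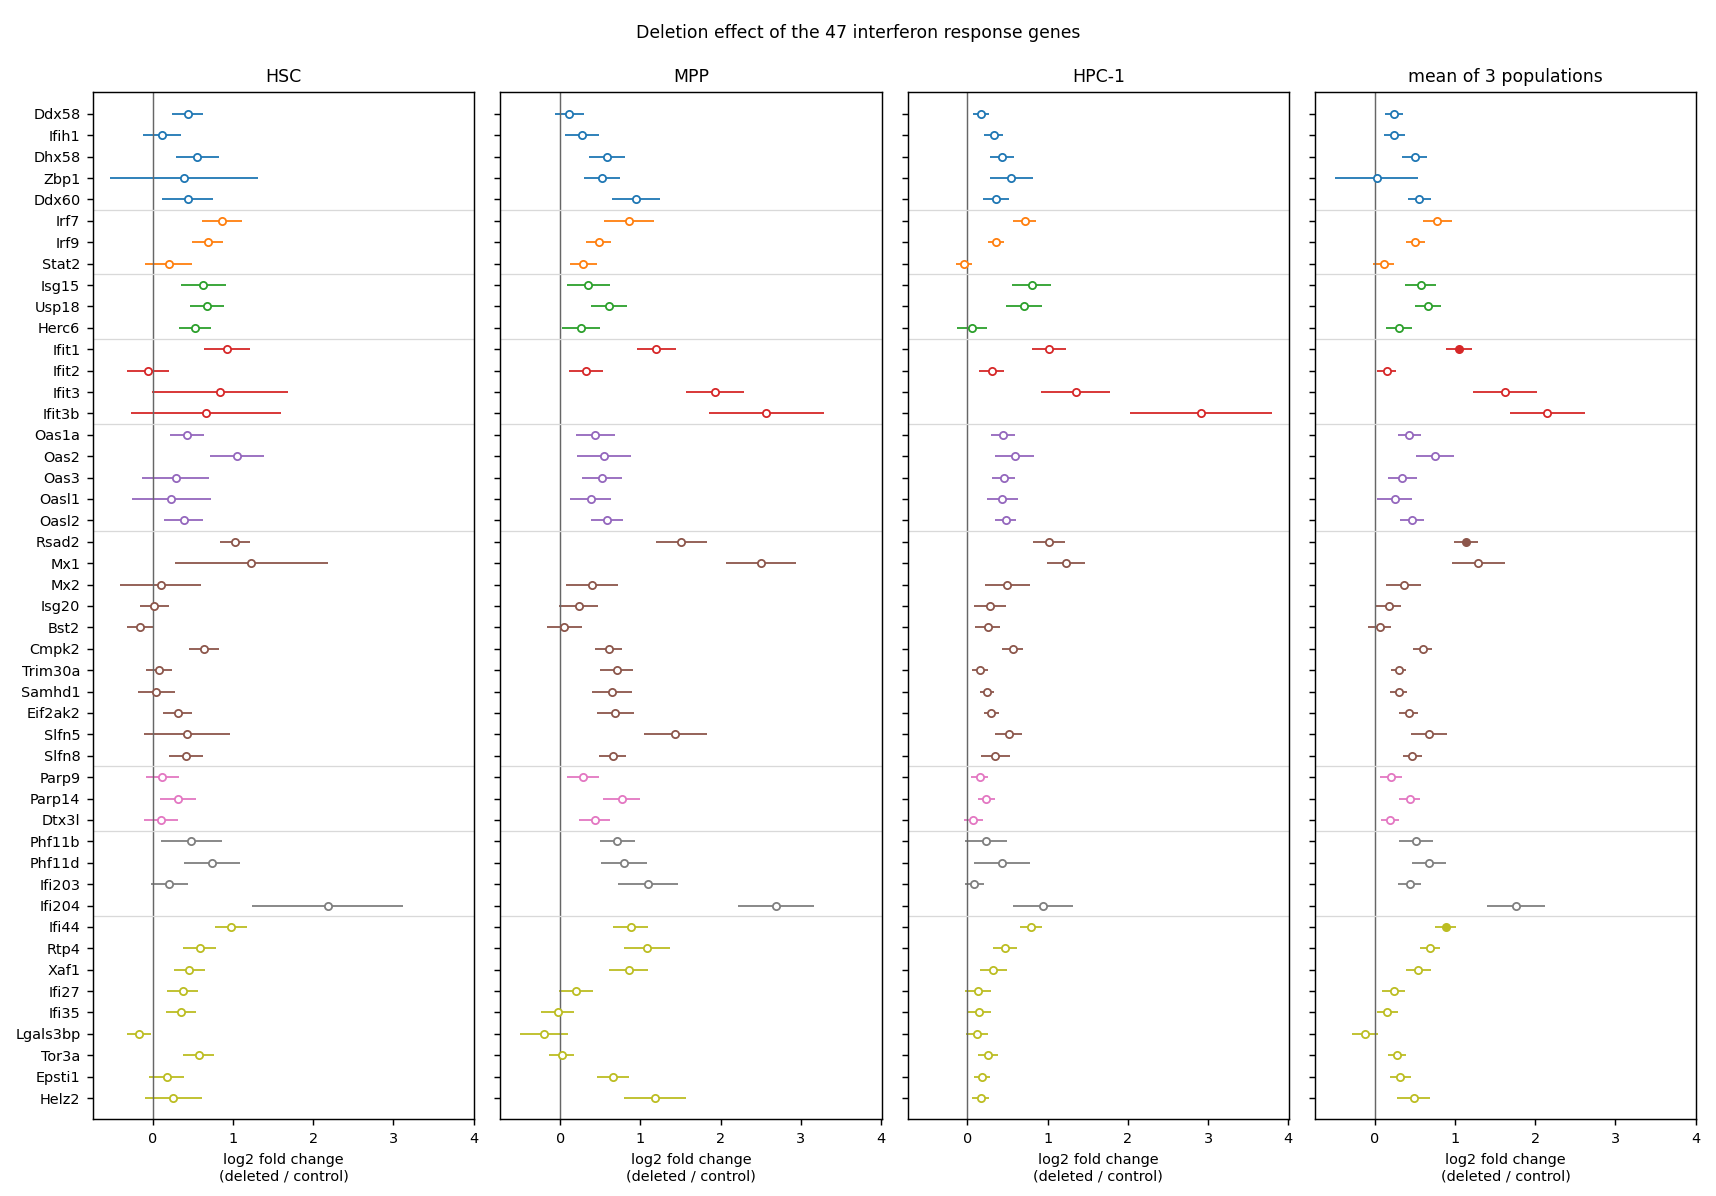
Log2 fold change (deleted over control, horizontal axes) of the 47 genes, in HSC, MPP, HPC-1 and as the mean over the populations of each mouse. Circles are fitted values, whiskers 1 SE, colours the 9 roles, and filled circles an adjusted p below 0.05, which holds for Rsad2, Ifi44 and Ifit1 in the last panel only. Most circles lie right of 0 in every panel, with medians of 0.43, 0.61, 0.35 and 0.44.

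**Figure D3:**
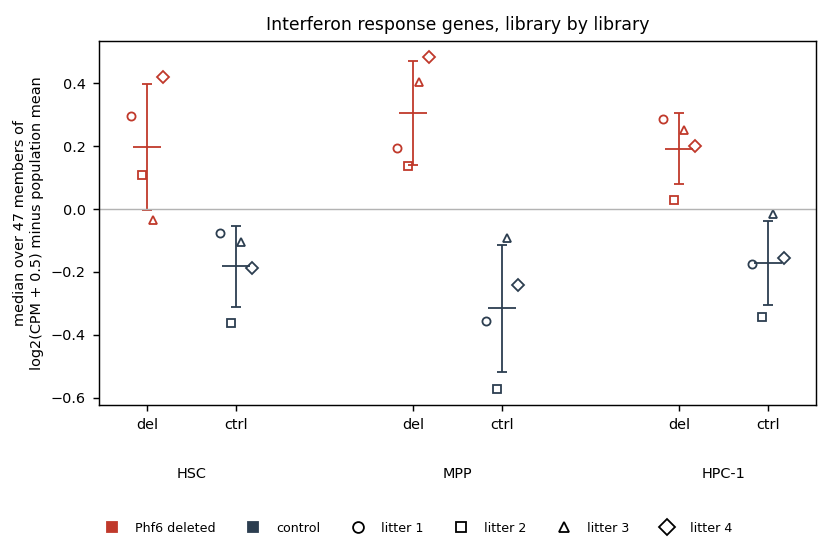
Median over the 47 genes of log2(CPM + 0.5) minus the gene's mean in that population (vertical axis), 1 symbol per library, deleted left of control, with mean and SD over 4 libraries. Deleted libraries lie above control libraries in all 3 populations, by the least in HSC, where deleted litter 3 (-0.04) is just above control litter 1 (-0.08).

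Library by library, the median member level in HSC was 0.30, 0.11, -0.04 and 0.42 in deleted mice of litters 1 to 4, against -0.08, -0.36, -0.10 and -0.19 in control mice (log2, relative to each gene's mean in the population). In MPP it was 0.20, 0.14, 0.41 and 0.48 in deleted and -0.36, -0.57, -0.09 and -0.24 in control mice. In HPC-1 it was 0.29, 0.03, 0.25 and 0.20 in deleted and -0.18, -0.34, -0.01 and -0.15 in control mice. The groups did not overlap in any population, and the mice of litter 2 were the lowest of their own group in MPP and in HPC-1. In sorted populations a higher level in each cell and a larger share of cells with a high level cannot be told apart.

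Of the 3 transcription factors of the response, 0 passed in a deletion comparison by edgeR or limma without the litter block. Irf7, the factor that amplifies interferon production, was at 95.6, 85.5, 67.9 and 149.8 CPM in deleted and 63.1, 39.9, 54.2 and 61.8 CPM in control HSC. In MPP, Irf7 was at 159, 108, 111 and 271 CPM in deleted and 78.4, 71.3, 80.6 and 129 CPM in control mice. In HPC-1, Irf7 was at 42.2, 39.9, 44.3 and 40.7 CPM in deleted and 29.1, 21.1, 22.2 and 29.4 CPM in control mice. The groups were apart in HSC and HPC-1, and in MPP the highest control, of litter 4, lay above 2 deleted libraries. Irf7 had an averaged log2 fold change of 0.78 ± 0.18 (SE, limma adjusted p = 0.176).

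Irf9, the DNA-binding subunit of the complex with STAT2, was at 177, 173, 134 and 233 CPM in deleted and 132, 94.4, 120.3 and 99.05 CPM in control HSC. In MPP, Irf9 was at 265, 244, 233 and 258 CPM in deleted and 164, 161, 206 and 183 CPM in control mice. In HPC-1, Irf9 was at 110.2, 113, 110.1 and 135 CPM in deleted and 94.3, 80.9, 102 and 87.9 CPM in control mice. Deleted and control libraries were apart everywhere, and the averaged log2 fold change was 0.51 ± 0.12 (SE, limma adjusted p = 0.171).

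Stat2, which joins IRF9 in that complex, was at 80.5, 54.2, 25.3 and 61.5 CPM in deleted and 43.4, 52.2, 50.02 and 47.7 CPM in control HSC. In MPP, Stat2 was at 70.2, 82.7, 72.7 and 85.8 CPM in deleted and 58.2, 57.8, 72.3 and 66.5 CPM in control mice. In HPC-1, Stat2 was at 72.1, 79.02, 74.9 and 66.3 CPM in deleted and 75.5, 72.2, 83.01 and 70.6 CPM in control mice. The groups overlapped in all 3 populations, and among HSC libraries the deleted one of litter 3 was the lowest. Averaged, Stat2 had a log2 fold change of 0.11 ± 0.13 (SE, limma adjusted p = 0.818). Apof overlaps Stat2 on the map.

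Cmpk2, a mitochondrial nucleotide kinase that lies beside Rsad2 in the genome, was at 77.9, 53.96, 66.5 and 74.4 CPM in deleted and 44.5, 47.2, 37.7 and 45.9 CPM in control HSC. In MPP, Cmpk2 was at 75.7, 68.7, 90.3 and 81.9 CPM in deleted and 58.04, 48.6, 54.2 and 47.05 CPM in control mice. In HPC-1, Cmpk2 was at 45.5, 37.9, 46.3 and 38.6 CPM in deleted and 31.5, 25.4, 31.2 and 25.97 CPM in control mice. Its log2 fold changes of 0.64, 0.61 and 0.56 in HSC, MPP and HPC-1 lay within 1 SE of each other. Averaged, it was 0.60 ± 0.12 (SE, limma adjusted p = 0.0966).

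Among the other antiviral effectors, all 11 had an averaged log2 fold change above 0, 8 at an unadjusted p below 0.05. Mx1 is a dynamin-like GTPase gene that is annotated as a transcribed pseudogene in the reference strain, so its counts are of RNA. In MPP, Mx1 was at 19.9, 21.2, 63.2 and 19.02 CPM in deleted and 3.37, 5.91, 5.27 and 7.17 CPM in control mice. In HPC-1, Mx1 was at 18.8, 18.1, 12.2 and 19.3 CPM in deleted and 9.79, 6.29, 7.77 and 5.37 CPM in control mice. In HSC, Mx1 was at 16.1, 1.503, 0.378 and 14.2 CPM in deleted and 0.971, 2.89, 3.54 and 6.39 CPM in control mice. The groups were separate in MPP, with the library of litter 3 far above the rest, and in HPC-1, and they overlapped in HSC. For Mx1 in MPP the log2 fold change was 2.5 ± 0.44 (SE, edgeR adjusted p = 0.12).

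Slfn5 (0.67 ± 0.22, averaged) and Slfn8 (0.47 ± 0.11), Schlafen family genes, Eif2ak2 (0.42 ± 0.11), the kinase PKR that halts translation, Samhd1 (0.30 ± 0.11), a nucleotide hydrolase, and Trim30a (0.30 ± 0.09) had an unadjusted p below 0.05 without passing the limma threshold. Mx2 (0.36 ± 0.22), Isg20 (0.17 ± 0.15), an exonuclease, and Bst2 (0.06 ± 0.15), the tether that holds virus at the membrane, did not reach that level. Bst2 was at 97.01, 76.8, 89.6 and 93.3 CPM in deleted and 91.02, 91.2, 91.7 and 124 CPM in control HSC, which overlapped. Schlafen genes are close copies of each other and Slfn5os overlaps Slfn5, so their counts are less certain.

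The IFIT genes, which lie together on chromosome 19 and bind viral RNA, ranged widely. The averaged log2 fold change was 2.15 ± 0.47 for Ifit3b, 1.63 ± 0.40 for Ifit3, 1.05 ± 0.16 for Ifit1 and 0.15 ± 0.12 for Ifit2 (SE). Ifit3 in MPP was at 20.5, 11.3, 15.6 and 26.98 CPM in deleted and 7.09, 2.88, 4.78 and 4.65 CPM in control mice, with no overlap. Ifit3b in HPC-1 was at 2.84, 0.784, 2.03 and 2.02 CPM in deleted and 0.0364, 0.2004, 0.706 and 0.114 CPM in control mice. These are low levels, and reads of Ifit3 and its near copy Ifit3b may have been divided between them. Ifit1bl1 overlaps Ifit3b on the map.

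Ifit2 was the member of this family with the value nearest 0. In HSC, Ifit2 was at 37.3, 68.5, 32.5 and 66.4 CPM in deleted and 52.9, 49.99, 63.5 and 46.6 CPM in control mice. In MPP, Ifit2 was at 33.6, 51.9, 36.8 and 30.9 CPM in deleted and 32.5, 29.6, 33.3 and 27.1 CPM in control mice. In HPC-1, Ifit2 was at 48.1, 34.02, 57.6 and 38.4 CPM in deleted and 36.7, 39.4, 33.8 and 34.3 CPM in control mice. The groups overlapped in each population, and in HSC the deleted libraries took both the lowest and the highest places.

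The OAS genes make enzymes that sense double-stranded RNA and activate RNase L, or relatives of them. All 5 had an averaged log2 fold change above 0 and 3 an unadjusted p below 0.05, while none passed. Oas2 was at 72.2, 64.2, 84.1 and 72.96 CPM in deleted and 39.2, 29.3, 70.4 and 56.7 CPM in control HPC-1. In HSC, Oas2 was at 37.03, 25.8, 30.6 and 67.9 CPM in deleted and 21.6, 12.6, 17.2 and 26.6 CPM in control mice. In MPP, Oas2 was at 52.7, 58.8, 52.3 and 104 CPM in deleted and 30.5, 27.8, 54.8 and 70.6 CPM in control mice. Litter 4 was high in both genotypes in MPP, and the groups overlapped in each population while the deleted mouse was higher in 11 of the 12 littermate pairs.

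Oas3 was at 48.95, 56.9, 14.1 and 89.3 CPM in deleted and 49.5, 30.7, 44.6 and 46.99 CPM in control HSC, where the deleted mouse of litter 3 was lowest. In MPP, Oas3 was at 96.2, 119.6, 143 and 159 CPM in deleted and 69.9, 65.9, 94.5 and 132 CPM in control mice. In HPC-1, Oas3 was at 56.3, 55.1, 74.9 and 55.5 CPM in deleted and 41.8, 36.9, 51.7 and 46.8 CPM in control mice. The groups were apart in HPC-1 and overlapped in HSC and MPP.

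The ISG15 genes concern a ubiquitin-like tag that is attached to proteins during infection. Usp18, the protease that removes ISG15 and also holds back the receptor, was at 51.9, 39.8, 46.98 and 35.2 CPM in deleted and 26.2, 22.4, 30.1 and 29.8 CPM in control HSC. In MPP, Usp18 was at 60.3, 41.8, 41.7 and 64.5 CPM in deleted and 28.9, 27.6, 39.2 and 40.8 CPM in control mice. In HPC-1, Usp18 was at 20.01, 15.3, 15.1 and 17.7 CPM in deleted and 8.296, 8.62, 9.94 and 15.1 CPM in control mice. None of these overlapped, although in HPC-1 the lowest deleted library (15.12 CPM) and the highest control library (15.08 CPM) nearly met. Averaged, the log2 fold change was 0.67 ± 0.17 for Usp18, 0.57 ± 0.19 for Isg15 and 0.30 ± 0.16 for Herc6, the ligase that attaches the tag in mice (SE, none past the limma threshold).

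Of the 5 sensors of foreign nucleic acid, Dhx58 (0.50 ± 0.16, averaged) and Ddx60 (0.55 ± 0.14) had an unadjusted p below 0.05. Ifih1, the gene of MDA5, was at 0.24 ± 0.14 and Ddx58, the gene of RIG-I, at 0.24 ± 0.11. Ddx58 in HSC was at 85.03, 94.3, 71.2 and 126 CPM in deleted and 70.9, 64.5, 76.5 and 66.4 CPM in control mice. In MPP, Ddx58 was at 119, 146, 128 and 148 CPM in deleted and 109.9, 119, 162 and 109 CPM in control mice. In HPC-1, Ddx58 was at 130.5, 111, 123 and 106 CPM in deleted and 98.9, 96.9, 123 and 100.3 CPM in control mice. The groups overlapped in each population. Zbp1, a sensor that can trigger necroptosis, had 1 count in the deleted HSC library of litter 3 and 232 to 710 in the other 3 deleted HSC libraries, and its averaged value was 0.02 ± 0.52. Its log2 fold change in HSC was 0.39 ± 0.92 (SE) and turned to -0.38 ± 1.01 with litter as a block.

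Parp14 (0.44 ± 0.13, averaged), an ADP-ribosyltransferase, had an unadjusted p below 0.05, and its neighbours Parp9 (0.20 ± 0.13) and Dtx3l (0.19 ± 0.11), which act as a pair and overlap on the map, did not. All 4 members of the p200 and PHF11 families did. Ifi204, a p200 gene of the DNA-sensing group, was at 9.11, 10.2, 28.8 and 10.2 CPM in deleted and 1.86, 2.499, 1.397 and 3.28 CPM in control MPP, which were separate. In HSC, Ifi204 was at 0.449, 6.58, 6.58 and 8.87 CPM in deleted and 3.12, 0.613, 0.852 and 0.304 CPM in control mice. In HPC-1, Ifi204 was at 7.18, 6.01, 3.19 and 11.1 CPM in deleted and 4.26, 2.65, 3.82 and 3.58 CPM in control mice. The groups overlapped in HSC, where 1 deleted library was near the control level, and in HPC-1. The averaged log2 fold change was 1.76 ± 0.37 for Ifi204, 0.67 ± 0.21 for Phf11d, 0.51 ± 0.21 for Phf11b and 0.43 ± 0.14 for Ifi203, and both families hold near copies.

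Among the remaining induced genes, Rtp4, a chaperone of membrane receptors, was the closest to the threshold of the averaged test (0.69 ± 0.13, SE, limma adjusted p = 0.0763). In MPP, Rtp4 was at 271, 189, 519.7 and 261 CPM in deleted and 151, 117, 148 and 169 CPM in control mice. In HPC-1, Rtp4 was at 50.8, 36.4, 37.3 and 40.6 CPM in deleted and 25.8, 26.3, 32.5 and 35.3 CPM in control mice. In HSC, Rtp4 was at 105, 98.3, 79.3 and 78.7 CPM in deleted and 83.5, 53.05, 50.02 and 54.4 CPM in control mice. The groups were apart in MPP and HPC-1, and in HSC the control mouse of litter 1 lay above 2 deleted mice. Masp1 overlaps Rtp4 on the map.

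Xaf1 (0.54 ± 0.16, averaged), a gene of cell death, Helz2 (0.48 ± 0.20), Epsti1 (0.32 ± 0.13) and Tor3a (0.28 ± 0.11) had an unadjusted p below 0.05, and Ifi27 (0.24 ± 0.14) and Ifi35 (0.16 ± 0.13) did not. Lgals3bp, a secreted glycoprotein gene, was the member that most often stood below control. In HSC, Lgals3bp was at 127, 138, 129 and 166 CPM in deleted and 139, 168, 153 and 172 CPM in control mice. In MPP, Lgals3bp was at 146, 128, 54.6 and 171 CPM in deleted and 131, 149.8, 118 and 178 CPM in control mice. In HPC-1, Lgals3bp was at 113, 109, 93.1 and 133 CPM in deleted and 94.3, 99.7, 87.02 and 132 CPM in control mice. All groups overlapped, and without the low MPP library of litter 3 its log2 fold change in MPP was 0.05 in place of -0.20.

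Per kilobase of transcript, the scale on which genes can be compared with each other, Bst2 was the most abundant member in control HSC (129.5 ± 21.6 CPM per kb, SD, n = 4), followed by Lgals3bp (72.9 ± 7.0) and Ifi27 (72.1 ± 11.5), and those last did not differ beyond their spread. In deleted MPP the order was led by Rtp4 (197 ± 92, with litter 3 far above the others) and Ifi27 (142 ± 34), and in control MPP by Bst2 (127.5 ± 35.3) and Ifi27 (123 ± 25). Ifit3b was the least abundant in every group, at 0.84 ± 0.55 CPM per kb in deleted and 0.53 ± 0.48 in control HSC. Among the genes that rose, Ifi44 was at 51.7 ± 12.1 in deleted and 26.3 ± 4.0 CPM per kb in control HSC, Ifit1 at 19.1 ± 5.2 in deleted and 10.1 ± 3.1 in control HSC, and Rsad2 at 15.4 ± 1.6 in deleted and 7.55 ± 0.82 in control HSC. The members with the highest levels per kb in control HSC, Bst2, Lgals3bp and Ifi27, were among those without an unadjusted p below 0.05 in any population.

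Whether deletion acted alike in the populations was tested as a difference of effects. Unless a block is named, these fits held no term for mouse, although the libraries compared come from the same mice. With mouse as a block 0 members passed an adjusted p below 0.05 in either difference. At an unadjusted p below 0.05 the block gave 2 members higher and 1 lower for MPP minus HSC (share of all genes not given). For MPP minus HSC, 0 members passed an adjusted p below 0.05 (0% of 14561 genes in either direction, and 0 members by DESeq2 or voom). At an unadjusted p below 0.05, 1 member was higher (2.13%, against 1.92% of all genes) and 1 lower (2.13%, against 0.948%). They were Trim30a (difference 0.63 ± 0.26, SE) and Tor3a (-0.54 ± 0.23). The share of members higher was near that of all genes. The difference was above 0 for 34 members (52.3% of all genes), with a median of 0.22 over members and 0.02 over all genes. Without the deleted MPP library of litter 3, 0 members passed, the median was 0.16, and Trim30a (0.42 ± 0.22) no longer had an unadjusted p below 0.05, while Tor3a (-0.48 ± 0.22, SE) did. In MPP, Trim30a was at 225, 268, 416 and 284 CPM in deleted and 183, 155, 205 and 189.7 CPM in control mice, and in HSC at 156, 181, 125 and 197 CPM in deleted and 172, 159.8, 142 and 152 CPM in control mice. The groups were apart in MPP and overlapped in HSC.

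For HPC-1 minus HSC, 0 members passed (0% of 14970 genes, and 0 members by DESeq2 or voom), and 0 had an unadjusted p below 0.05 (1.7% of all genes higher, 1.76% lower). The difference was above 0 for 22 members (49.3%), with a median of -0.01 over members and over all genes. For Rsad2 the difference was 0.49 ± 0.37 for MPP minus HSC and -0.01 ± 0.27 for HPC-1 minus HSC (SE), and for Ifi44 it was -0.09 ± 0.30 and -0.18 ± 0.24. Without the deleted MPP library of litter 3 the difference for MPP minus HSC was 0.13 ± 0.29 for Rsad2 and -0.07 ± 0.30 for Ifi44. By fitted value 26 members had their largest log2 fold change in MPP, 11 in HPC-1 and 10 in HSC, and without that library 29, 8 and 10. No member showed a difference of effects between populations at the adjusted threshold, which does not show that the effects are alike.

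In control mice alone, the response genes differed between the stem cells and the multipotent progenitors. Of 47 members 13 rose in MPP relative to HSC (4.06% of 13636 genes) and 1 fell (4.78%), by edgeR at an adjusted p below 0.05. At an unadjusted p below 0.05 there were 20 higher (10.6%) and 1 lower (11.3%). Of all members 43 had a log2 fold change above 0 (49.2% of all genes), and the median log2 fold change was 0.45 over members and -0.01 over all genes. With mouse as a block 18 rose (7.39%) and 1 fell (8.07%).

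Rtp4 rose by 1.31 ± 0.18 (SE, edgeR adjusted p = 0.0006), and its MPP control libraries, given above, all lie above its HSC control libraries. Ddx58 rose by 0.87 ± 0.15 (edgeR adjusted p = 0.00213), Irf9 by 0.71 ± 0.14 (adjusted p = 0.00592), Oas3 by 1.10 ± 0.22 (adjusted p = 0.00756) and Ifi27 by 0.80 ± 0.17 (adjusted p = 0.00846). Their control groups are separate between MPP and HSC. CPM was scaled within each population, so overlap between MPP and HSC is read from values not scaled together. The fold changes come from a fit that scaled both populations together. Ifi27 was at 104, 118, 131 and 166 CPM in control MPP and 87.3, 59.4, 75.4 and 81.7 CPM in control HSC. The map places Ifi27l2a over Ifi27, so its counts are less certain. Phf11b was at 28.9, 18.3, 31.3 and 22.2 CPM in control MPP and 13.4, 5.25, 12.1 and 5.68 CPM in control HSC, again without overlap. The other members that rose were Phf11b, Oas2, Oasl2, Ifi44, Oasl1, Irf7, Slfn8 and Tor3a.

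Ifit2 was the member that fell, with -0.77 ± 0.15 on the log2 scale (SE) and an adjusted p of 0.00687 from edgeR. It averaged 30.6 ± 2.8 CPM in control MPP and 53.2 ± 7.3 CPM in control HSC (SD, n = 4 each). On these values, scaled within each population, the groups did not overlap. By role, 4 of 5 OAS genes rose, 4 of 9 other induced genes, 2 of 3 transcription factors, 1 of 5 sensors, 1 of 11 other effectors and 1 of 4 p200 and PHF11 genes. The count of 13 rested on single libraries: it was 6 without HSC control litter 2 or MPP control litter 3, 7 without MPP control litter 4 and 8 without HSC control litter 4. In the same comparison all 10 cell cycle genes listed fell, with a median of -0.92. These control libraries also serve in the deletion comparisons, so no overlap between the calls is drawn.

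**Figure D4:**
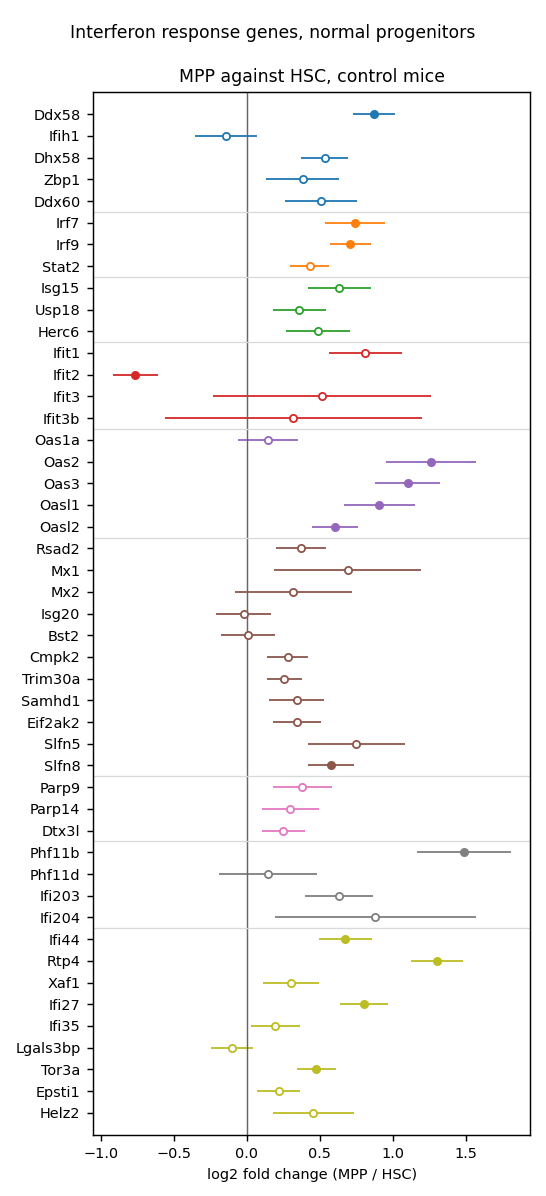
Log2 fold change of the 47 genes in MPP over HSC of control mice (horizontal axis), with circles for fitted values, whiskers for 1 SE, colours for roles and filled circles for an adjusted p below 0.05. Filled circles lie right of 0 for 13 genes, up to Phf11b at 1.49, and left of 0 for Ifit2 at -0.77.

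The genes on either side of the response were examined as 4 lists. Of 21 interferon genes, the ligands that start the pathway, 0 could be tested in any comparison. Of these, 18 had 0 counts in all 8 HSC libraries, 17 in all MPP and 17 in all HPC-1 libraries, among them every numbered Ifna gene. All 21 together had 45, 45 and 31 counts in HSC, MPP and HPC-1 over 8 libraries each, and no library held more than 34. Over a library this was 0.05 to 2.15 CPM in deleted and 0 to 0.14 CPM in control HSC, and 0 to 0.71 CPM in deleted and 0.31 to 0.50 CPM in control MPP. In HPC-1 it was 0 to 0.16 CPM in deleted and 0 to 0.46 CPM in control mice.

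Of 10 receptor and kinase genes 9 could be tested in the averaged comparison, and 0 passed in the deletion comparisons. For the chains of the type I receptor the averaged log2 fold change was -0.08 ± 0.14 for Ifnar1 and 0.10 ± 0.10 for Ifnar2 (SE, limma adjusted p = 0.886 and 0.764). Of 19 genes for sensing adaptors and upstream factors 0 passed in a deletion comparison, and the median averaged log2 fold change of the 17 tested was 0.05. Tlr7, a receptor for single-stranded RNA, was at 39.1, 30.6, 44.4 and 43.8 CPM in deleted and 30.2, 25.1, 28.1 and 23.6 CPM in control HPC-1 (log2 fold change 0.56 ± 0.15, SE, edgeR adjusted p = 0.338). Irf5 was at 0.48 ± 0.13 in HPC-1 (edgeR adjusted p = 0.386) and had, like Tlr7, no overlap there. Of 9 negative regulators 0 passed, with a median of 0.01 averaged, Ptpn6 at -0.14 ± 0.11 and the feedback inhibitor Socs1 at 0.23 ± 0.23. In HSC, Pias4, a SUMO ligase that restrains STAT proteins, had an unadjusted p below 0.05 (-0.47 ± 0.21, SE). Its log2 fold change was -0.07 ± 0.21 in MPP and 0.29 ± 0.15 in HPC-1, and the difference for HPC-1 minus HSC was 0.76 ± 0.26 (SE, unadjusted p = 0.00864, edgeR adjusted p = 1).

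In control mice, 5 of 10 receptor and kinase genes, 4 of 18 adaptor genes tested and 0 of 9 negative regulators rose in MPP relative to HSC, and none fell. Among them were the interferon gamma receptor chain Ifngr2 (1.14 ± 0.16, SE, edgeR adjusted p = 0.000827), the receptor chain Il10rb (0.85 ± 0.16, adjusted p = 0.00524) and Sting1, the adaptor of DNA sensing (1.15 ± 0.14, adjusted p = 0.000238). Tlr7 was at 9.25, 0.833, 6.26 and 8.69 CPM in control MPP and at 0 in every control HSC library, and no fold is given.

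**Figure D5:**
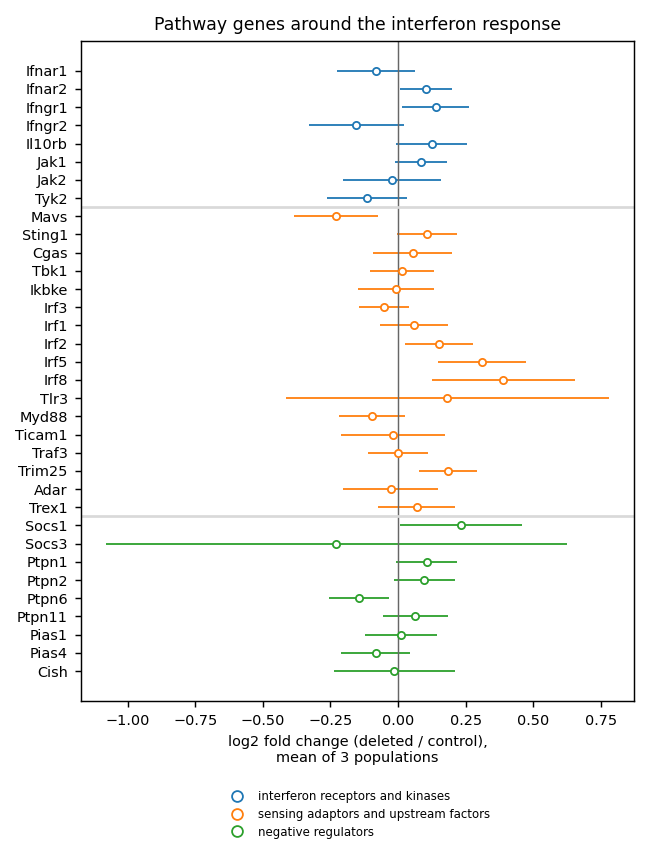
Averaged log2 fold change (deleted over control, horizontal axis) of genes tested from 3 pathway lists, with circles for fitted values, whiskers for 1 SE and colours for lists. Circles lie on both sides of 0, with Ifnar1 at -0.08 and Irf5 at 0.31, and no gene shown passed an adjusted p below 0.05.

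Members with and without the promoter letters overlapped in their response. The averaged log2 fold change had a median of 0.51 over the 15 members with a match (0.06 to 2.15) and 0.31 over the 20 without one (-0.12 to 0.88). In HSC the medians were 0.43 with and 0.33 without a match, in MPP 0.71 and 0.53, and in HPC-1 0.44 and 0.30. Rsad2 and Ifit1, printed above, hold a match, and Ifi44 does not in this window.

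The members are not spread evenly over the genome: 22 of the 47 lie in 9 clusters of 2 or more members less than 200 kb apart. Rsad2 and Cmpk2 share 1 cluster on chromosome 12, the 4 Ifit genes 1 on chromosome 19 and Oas1a, Oas2 and Oas3 1 on chromosome 5. Within the Ifit cluster the averaged log2 fold change ran from 0.15 for Ifit2 to 2.15 for Ifit3b, and for Rsad2 and Cmpk2 it was 1.14 and 0.60. In all, 9 members overlap another gene on the map.

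Markers of other cell types were summed in each library. All 10 neutrophil markers had a log2 fold change above 0 in each population, none at an unadjusted p below 0.05, and their summed level ran from 1235 to 12150 CPM in deleted and 171 to 2549 CPM in control MPP. The median of that sum over the MPP libraries was about the same, 2162 CPM in deleted and 2180 CPM in control mice. Summed monocyte and macrophage markers ran from 545 to 2138 CPM in deleted and 455 to 839 CPM in control MPP, and from 819 to 2524 CPM in deleted and 603 to 1388 CPM in control HSC. Their median sum was lower in deleted (753 CPM) than in control (785 CPM) MPP. In HSC it was higher in deleted (1162 CPM) than in control mice (903 CPM). Plasmacytoid dendritic cells, a main source of interferon, have markers that summed to 148 to 172 CPM in deleted and 105 to 155 CPM in control HSC, and to 181 to 288 CPM in deleted and 130.1 to 176 CPM in control MPP. Of those markers that could be tested, 3 of 3 in HSC, 4 of 4 in MPP and 5 of 7 in HPC-1 had a log2 fold change above 0, with medians of 0.69, 0.81 and 0.21, and 1, 2 and 1 had an unadjusted p below 0.05. The defining gene Siglech was at 0 in HSC, and Klk1 was at 0 in HSC and MPP. The 10 cell cycle genes summed to 636 to 1455 CPM in deleted and 1474 to 1560 CPM in control MPP, without overlap. Summed T and NK cell markers ran from 65.5 to 155 CPM in deleted and 136 to 214 CPM in control MPP, B and plasma cell markers from 593 to 2954 CPM in deleted and 612 to 1458 CPM in control HPC-1, and erythroid markers from 2.26 to 6.48 CPM in deleted and 5.01 to 8.19 CPM in control HPC-1. The part of these markers in the response was not tested.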

How the data were processed

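The values were whole-number read counts per gene, deposited by the authors as 1 table of 24 libraries with 27179 genes, and the 24 sample files were identical to its columns. Per the submitters' processing notes, bcl2fastq, featureCounts and the mouse genome mm10 were used. Which aligner, annotation or strandedness was used is not given in the sources used here. Reads were paired and 80 bases long, per the labels' protocols, and libraries held 9658167 to 27786830 counts, which sets the counting error of low genes. Of the gene IDs 25275 were matched to RefSeq names (GRCm38.p6) and 1904 were not. No line lacked a gene, and no column was left unused.

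Counts were tested with edgeR 4.0.16 (R 4.3.3; quasi-likelihood, TMM, genes filtered at a count of 10 and a total of 15) in each population. The averaged effect was tested with limma 3.58.1 on each mouse's mean log2 CPM (prior count 2). Standard errors of edgeR values were derived from the F statistic. Benjamini-Hochberg adjustment ran over all genes, and 0.05 was the threshold. All tests were 2-sided. The replicates are separate mice. Libraries of 1 group differed by more than sampling noise (chi-square over degrees of freedom 16.7 to 248). The procedure was run on simulated counts with a fixed dispersion, no litter effect and no library that stood apart. That checks the code and not how the tests perform on these libraries.

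The labels pair 1 deleted and 1 control mouse in each litter, so the litter block was fitted as an alternative. Deviations of littermates from their group means had correlations of 0.00133 to 0.033 (HSC), 0.00666 to 0.166 (MPP) and 0.0764 to 0.476 (HPC-1). Mice of other litters had -0.114 to 0.083, -0.208 to 0.143 and -0.267 to 0.146 in the same order. Further alternatives were DESeq2 1.42.0, voom, other size factors, no filter, another prior count, summed counts, HSC and MPP alone and leaving out each replicate.

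The members and lists were chosen with earlier results of these data known. Values in every library were planned for the 5 members with the lowest averaged p, for the lowest p in each population, for up to 5 past the threshold in each comparison or its blocked fit, for Irf7, Irf9 and Stat2, and for members below 0 in at least 2 populations. Up to 2 genes of each pathway list with the lowest p were named in a comparison. A result for 1 gene of the receptor and kinase list is not reported here. Library values of Usp18, Bst2, Trim30a and Ifit3b, and the lower-ranked pathway genes Ifnar1 and Ifnar2, were added after their values were seen. Those of Ifit3 in MPP are also outside this plan.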

Additional observations from a re-analysis of the deposited data

Results flagged for a closer look

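In 8 of 114 groups of 4 libraries examined, 1 library lay far from the other 3, by Dixon's test. Chance alone gives about 1 such group in 20. The values concern single genes, and their cause was not tested.

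In MPP of deleted mice, litter 3 held Mx1 at 63.2 CPM, where the others held 19.0 to 21.2 CPM, and Ifi204 at 28.8 CPM, where the others held 9.11 to 10.2 CPM. That is the library with 9.34% of its counts in 10 genes. Oas2 was at 103.8 CPM in deleted MPP of litter 4, where the others had 52.3 to 58.8 CPM. Irf7 was at 128.9 CPM in control MPP of litter 4, where the other controls had 71.3 to 80.6 CPM.

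In HPC-1 of deleted mice, Oas3 was at 74.9 CPM in litter 3, against 55.1 to 56.3 CPM in the other deleted mice. Irf9 was at 135.4 CPM in deleted HPC-1 of litter 4, against 110.1 to 112.9 CPM in the others. Ddx58 was at 122.9 CPM in control HPC-1 of litter 3, where the other controls had 96.9 to 100.3 CPM. Rtp4 was at 83.5 CPM in control HSC of litter 1, where the other controls had 50.0 to 54.4 CPM.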

How the results depend on the processing

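For the 17 members followed one by one in the deletion comparisons, directions held in 892 of 901 values under the alternatives. Over all 47 members they held in 2438 of 2491, and 19 members reversed at least once, each with a log2 fold change of at most 0.43 in size. Of those, Zbp1 (-0.38) and Oasl1 (-0.04) reversed in HSC with the litter block. All 108 recomputed medians moved by less than the replicate spread. With DESeq2 the number of members higher at an adjusted p below 0.05 was 2 for HSC, 10 for MPP and 6 for HPC-1, where edgeR gave 0 in each. The share of all genes that DESeq2 called is not given. In HPC-1 it was 3 without the filter on low counts, 1 with voom and 6 with the litter as a replicate block. The block ended the averaged call of Ifit1 (limma adjusted p = 0.0595) and, beside the 6 gained in HPC-1, changed no other call of a member in the deletion comparisons. With HSC and MPP alone 0 members passed in the averaged comparison. Leaving out 1 replicate at a time gave 0 to 3 members in MPP (3 without deleted litter 3), 0 to 3 averaged, and 6 to 13 higher in MPP relative to HSC of control mice. Ifit2 in HSC ran from -0.22 to 0.12 as replicates were left out and was above 0 without control litter 3 (0.042), deleted litter 1 (0.085) or deleted litter 3 (0.12). Stat2 in HSC was -0.023 without deleted litter 1 (-0.023 to 0.44). In HPC-1 it was 0.0056 without control litter 3 and also above 0 without deleted litter 4 (-0.083 to 0.0056). Oas3 in HSC was -0.11 without deleted litter 4 (-0.11 to 0.60). Lgals3bp was 0.049 in MPP (-0.40 to 0.049) and 0.043 averaged (-0.25 to 0.043) without deleted litter 3. The cause of these changes was not tested. Depth limits Ifit3b, Ifi204 and the interferon genes most, since they have few reads.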
